A study of Mus musculus with 5 samples.

Results

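Long noncoding RNAs (lncRNAs) were examined as a set of 10 named genes in RNA-seq of mouse neural stem and precursor cells: Malat1, Neat1, Meg3, Miat, Gas5, Snhg1, Snhg11, Mir22hg, Rmst and Epb41l4aos. A gene belonged to the set when its name was among these in the deposited table of each library, and its values were summed over the rows of its Ensembl identifier. Of the 10 names, 9 had a row among the 46078 genes of the tables, with Epb41l4aos listed under an older symbol, Epb4.1l4aos. Snhg1 had no row and is not analysed here as a gene. Of the 9, 7 reached a mean of at least 1 TPM (transcript abundance per length, with 1 common total for every library), and Snhg11 and Rmst did not.

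The cells were isolated from the subventricular zone, the stem cell region beside the lateral ventricles of the forebrain, of adult C57BL/6 mice, labelled as female and without mutation. The labels give an age of 5 to 8 weeks, and the methods of the study an older age and the C57BL/6j substrain. By the methods of the study, such cells were expanded in culture as spheres with growth factors, passaged and plated before the exposure. All cultures received PBS, added to the culture medium, as a sham exposure and no hydrogen peroxide. RNA was taken after 1 h (replicates 1 and 2) or after 8 h (replicates 13, 14 and 15). The methods of the study count each animal as 1 replicate for such cells. The labels tie no library to an animal, so p-values measure the spread between these libraries. The labels contrast the time after PBS only, and the study used such cells as a control for its embryonic stem cell-derived astrocytes.

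The library identifiers in the labels run in 2 number series, whose meaning no source used here gives. By these labels, series 1 holds both 1 h libraries and 8 h replicate 14, and series 2 holds 8 h replicates 13 and 15. The count columns that carry the identifiers did not match the 8 h tables of the same names, as given at the end of the results. The place of the 8 h tables in the series therefore holds by label only. The 2 series stood apart, and the 3 libraries of series 1 went against the label of an all-female set. Xist, the RNA that coats the inactive X chromosome of female cells, reached 165 and 200 TPM in the 8 h replicates 13 and 15 and stayed at or below 0.0611 TPM in the 3 others. A total of 4 Y-linked genes summed to between 138 and 181 TPM in series 1 and to 0.0253 and 0 TPM in series 2. Mitochondrial genes held 10.7% to 11.1% of TPM in series 1 and 6.23% and 6.30% in series 2. Markers of neural stem and precursor cells were high in every library. Over 8 genes they summed to between 10959 and 11505 TPM in series 1 and to 12834.5 and 13866.4 TPM in series 2. Fabp7 alone, at 7679 to 10076 TPM, made most of these sums. Both series 2 libraries were the highest for 5 of the 8 (62.5%), beside 39.8% of the 13870 genes with a mean of at least 1 TPM. Microglial markers stayed between 0.461 and 1.47 TPM over 4 genes, with Aif1 at 0 in all 5 libraries. Each result below is therefore given by time and by series.

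Many lncRNAs are transcribed, capped and spliced much like messenger RNAs, and they act as RNA. Malat1 and Neat1 have 1 exon block each in the annotation. Malat1 is concentrated in nuclear speckles, which store splicing factors, and Neat1 is the scaffold of paraspeckles. Gas5, Snhg1, Snhg11 and Epb41l4aos are host genes of small nucleolar RNAs (snoRNAs), which guide the chemical modification of ribosomal and other RNAs and are cut out of the introns of their host. Mir22hg and Meg3 overlap microRNA (miRNA) genes, and Meg3 is expressed from the maternal copy of the imprinted Dlk1-Dio3 domain. Miat and Rmst are known from the nervous system, Rmst as a partner of the neural transcription factor Sox2.

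The mature miRNAs of Mir22hg and Meg3 are shown first, because the row of the Mir22 hairpin held the one difference between times in these loci that passed the test, and because Meg3 shifted with the series. Capitals mark the seed, bases 2 to 8, which pairs with target RNAs. The sequences are those of RefSeq on GRCm38.p6, all on the plus strand.
mmu-miR-22-5p, chr11:75463734-75463755: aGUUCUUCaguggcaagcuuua
mmu-miR-22-3p, chr11:75463772-75463793: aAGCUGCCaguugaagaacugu
mmu-miR-1906, chr12:109544588-109544609: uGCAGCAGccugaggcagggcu
mmu-miR-770-5p, chr12:109563710-109563731: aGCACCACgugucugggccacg
mmu-miR-770-3p, chr12:109563744-109563765: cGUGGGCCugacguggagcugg
Each of the 5 seeds occurred in 1 mature mouse miRNA of the reference table. Whether that table lists every mouse miRNA was not checked, so a seed shared with an unlisted miRNA would be missed. Rmst holds the hairpins of miR-135a and miR-1251 as well, and both were listed at 0 TPM in all 5 libraries.

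The promoter windows of the 3 genes whose levels differed most between the series, and of Gas5 as the steadiest gene, are shown next. A window covers 250 bases before to 50 after a RefSeq start on GRCm38.p6 and is written 5′ to 3′ on the strand of the gene. Capitals mark matches, on either strand, to TGACGTCA (the cyclic AMP response element), CCAAT (the core of the NF-Y motif), TATAAA (the TATA box) and GGGCGG (the GC box). CACGTG (the E-box) was searched too.
Malat1, chr19:5802623-5802922, minus strand: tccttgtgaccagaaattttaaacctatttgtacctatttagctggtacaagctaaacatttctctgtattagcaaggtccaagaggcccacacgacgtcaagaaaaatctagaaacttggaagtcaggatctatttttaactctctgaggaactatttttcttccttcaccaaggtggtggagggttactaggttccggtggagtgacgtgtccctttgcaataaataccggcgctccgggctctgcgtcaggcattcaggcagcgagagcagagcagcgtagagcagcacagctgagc
Mir22hg, chr11:75461289-75461588, plus strand: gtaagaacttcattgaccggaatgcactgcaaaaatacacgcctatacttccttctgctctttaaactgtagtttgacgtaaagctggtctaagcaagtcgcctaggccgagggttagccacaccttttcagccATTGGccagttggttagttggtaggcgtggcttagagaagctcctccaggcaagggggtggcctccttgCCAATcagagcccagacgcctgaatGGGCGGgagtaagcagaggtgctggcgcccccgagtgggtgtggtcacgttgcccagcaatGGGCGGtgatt
Meg3, chr12:109540746-109541045, plus strand: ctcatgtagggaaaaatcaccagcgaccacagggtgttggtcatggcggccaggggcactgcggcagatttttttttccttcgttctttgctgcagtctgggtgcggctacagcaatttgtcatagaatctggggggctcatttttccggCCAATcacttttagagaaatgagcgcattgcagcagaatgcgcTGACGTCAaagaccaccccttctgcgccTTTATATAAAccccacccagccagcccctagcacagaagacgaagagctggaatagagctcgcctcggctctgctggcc
Gas5, chr1:161034916-161035215, plus strand: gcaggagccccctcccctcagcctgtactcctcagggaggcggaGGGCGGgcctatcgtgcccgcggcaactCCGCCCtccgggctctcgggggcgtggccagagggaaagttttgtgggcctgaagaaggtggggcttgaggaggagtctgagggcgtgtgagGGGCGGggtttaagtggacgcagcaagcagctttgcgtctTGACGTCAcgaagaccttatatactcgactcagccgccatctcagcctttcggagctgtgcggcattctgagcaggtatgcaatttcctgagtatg
The Malat1 window held none of the 5 motifs. The Mir22hg window held CCAAT at 2 places and GGGCGG at 2 places. Those of Meg3 and Gas5 each held 1 copy of TGACGTCA, beginning at −57 and −46 from the start. The Meg3 window also held CCAAT at 1 place and the letters TATAAA at 2 overlapping places on opposite strands, and the Gas5 window GGGCGG at 3 places. Of 32851 windows of this length over all genes, 1.79% held TGACGTCA, 37.4% held CCAAT, 13.6% held TATAAA, 35.7% held GGGCGG and 7.15% held CACGTG. A match is a description of these letters only. The other Gas5 and Meg3 windows of the table are not shown, and which start the cells used was not measured.

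By TPM in these poly-A libraries the 7 genes fell far apart, and only Gas5 and Malat1 ranked among the higher genes. All levels and differences are of RNA captured by poly-A selection. How far that capture differed between genes or libraries was not tested. Gas5 had a mean of 294 TPM over the 5 libraries, rank 471 of 13870 genes with a mean of at least 1 TPM and rank 5 of the 610 lncRNA genes among them. Malat1 followed with a mean of 208 TPM, at rank 726 and at rank 8 among lncRNAs. Epb41l4aos and Mir22hg were at 28.1 and 17.7 TPM, ranks 39 and 61 among lncRNAs. Miat, Meg3 and Neat1 were at 3.64, 2.42 and 1.56 TPM, ranks 243, 324 and 455 among lncRNAs. Snhg11 and Rmst were below the filter, with 0.556 and 0.364 TPM. The working description of the set as abundant thus held for the first pair and not for Miat, Meg3, Neat1, Snhg11 and Rmst. Neighbours in this order whose ranges over libraries overlapped were Gas5 and Malat1, Epb41l4aos and Mir22hg, Miat and Meg3, Meg3 and Neat1, and Snhg11 and Rmst.

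**Figure D1:**
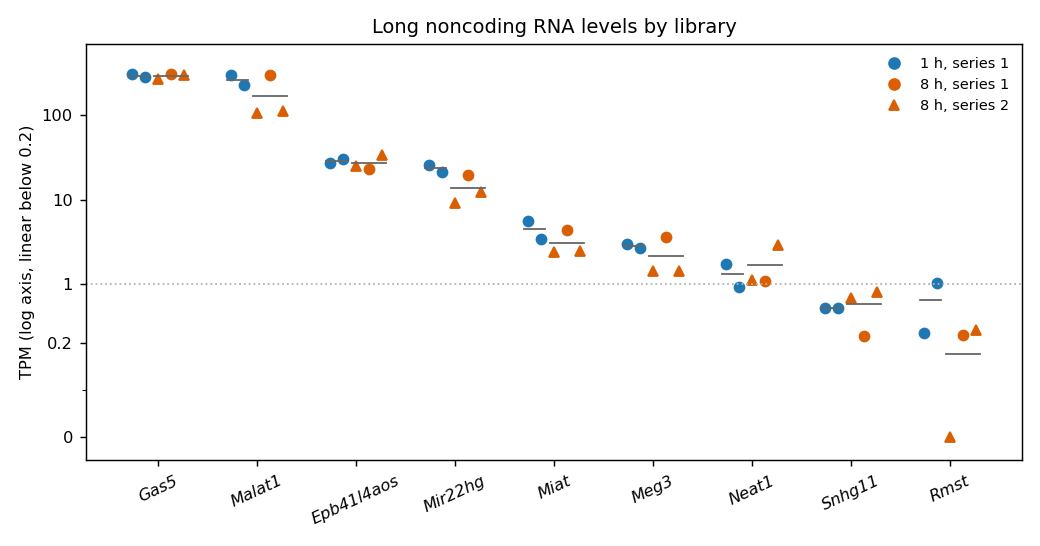
TPM of the 9 genes in each library, on a log axis that is linear below 0.2 TPM, with genes in order of mean level, colour for time, triangles for series 2, grey lines for the mean of each time and a dotted line at the filter of 1 TPM. Gas5 stayed between 269 and 313 TPM, while the 2 triangles of Malat1, 105 and 113 TPM, lie below its 3 circles, the lowest of which is 228 TPM.

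Malat1, the nuclear speckle RNA (ENSMUSG00000092341, chr19:5795690-5802672 on GRCm38, minus strand, lincRNA, a single exon block), was the most variable of the abundant pair. Its level was 299 and 228 TPM at 1 h, against 105, 297 and 113 TPM in the 8 h replicates 13, 14 and 15. Replicate 14 matched the 1 h libraries and the 2 libraries of series 2 were low, so the times overlapped and the series did not. The mean at 1 h was 264 ± 50.7 TPM (SD, n = 2), and the 8 h mean was 172 ± 108 TPM (SD, n = 3). On log2(TPM + 1) the difference of 8 h from 1 h was −0.77 ± 0.46 (SE), with an adjusted p of 0.477 in limma with Benjamini-Hochberg adjustment over 13870 genes. Calls required an adjusted p no higher than 0.05 together with a log2 difference beyond 1 in either direction, the thresholds of the study, and Malat1 was not called between times. The series were compared in a second limma model with time as a term, in which the series difference rests on replicates 13 and 15 against replicate 14 alone. There Malat1 was lower in series 2 by −1.44 ± 0.17 on the log2 scale, with an adjusted p of 0.0114, and was called. The mean of series 2 was 36.8% of replicate 14. The call was lost when replicate 13 or replicate 15 was left out, with adjusted p-values of 0.0711 and 0.0705 and log2 differences of −1.39 and −1.49. Leaving out replicate 14 instead turned the comparison of times into a call for Malat1, at −1.25 and an adjusted p of 0.00546. In that fit all 1 h libraries are of series 1 and all 8 h libraries of series 2 by label, so time and series cannot be told apart.

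Mir22hg, the host gene of Mir22 (ENSMUSG00000085148, chr11:75461539-75466676, plus strand, processed transcript), was the one gene of the 7 whose 8 h libraries all lay below its 1 h libraries. It was at 25.7 and 21.5 TPM at 1 h and at 9.11, 19.7 and 12.2 TPM in the 8 h replicates 13, 14 and 15. Replicate 14 lay close under the 1 h libraries, and series 2 was lower still. Over all genes tested, 9.43% had every 8 h library below both 1 h libraries and 23.7% had every 8 h library above, so 1 of 7 below is near the background. The log2 difference of 8 h from 1 h was −0.80 ± 0.30, with an unadjusted limma p of 0.0383, a level that 12.3% of all genes reached, and an adjusted p of 0.390. Between the series it was −0.84 ± 0.21, with an adjusted p of 0.0635. Without replicate 14 the difference between times was −1.09 with an adjusted p of 0.0126 and was called, but time and series cannot be told apart there.

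Within Mir22hg the deposited tables carry a separate row for the 95 base Mir22 hairpin, chr11:75463716-75463810, which lies in an exon of both annotated transcripts. This row was at 10.7 and 11.7 TPM at 1 h and at 0.124, 0.206 and 0.311 TPM in the 8 h replicates 13, 14 and 15. The times did not overlap, and replicate 14 went with the other 8 h libraries here. The log2 difference was −3.33 ± 0.18 with an adjusted limma p of 0.00995, which made it 1 of 6 genes called between times (0.0433% of 13870). The call was kept without replicate 14 (adjusted p of 0.0015). It was lost when any of the 4 other libraries was left out, with adjusted p-values of 0.101 to 0.335, and when no filter on low values was used (0.101). Mean coverage over the hairpin was 26.4 and 34.4 reads per base at 1 h and between 0.372 and 0.739 at 8 h, while coverage over Mir22hg as a whole was 46.2 and 44.5 at 1 h and 18.8, 42.1 and 17.6 at 8 h. The row shares its bases with the host, so reads of the hairpin and of the exon cannot be told apart, and a poly-A library does not measure the mature miRNA. Its role in the result was not tested.

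Gas5, a snoRNA host gene whose spliced RNA is known to be kept low by nonsense-mediated decay, was the steadiest of the set (ENSMUSG00000053332, chr1:161034422-161038539, plus strand, processed transcript). It was at 305 and 286 TPM at 1 h and at 269, 313 and 298 TPM in the 8 h replicates 13, 14 and 15, with means of 296 ± 13.7 (SD, n = 2) and 293 ± 22.2 (SD, n = 3). The highest library was 1.16 times the lowest. Its range over the libraries on the log2 scale, 0.22, was wider than that of 10.6% of the genes tested, against 96.1% for Malat1 (1.50) and 95.2% for Mir22hg (1.40). The difference between times was −0.01 ± 0.10 (adjusted limma p of 0.953) and between series −0.14 ± 0.11 (adjusted p of 0.469). Gas5 overlaps Zbtb37 on the opposite strand, which was at 5.00 to 8.01 TPM.

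The annotation (GENCODE vM21) places 10 snoRNA genes within Gas5, each in an intron of all 5 spliced transcripts that span it. Snord80 names an overlapping pair among them, listed at or below 0.00041 TPM and at 15.0 to 25.2 TPM. The TPM of the 10 summed to 87.2 and 73.4 at 1 h and to 81.4, 99.3 and 107 in the 8 h replicates 13, 14 and 15. The times overlapped as they did for the host. The row named Mir5117, annotated as a snoRNA, moved between extremes inside this steady host, at 5.56 and 0.101 TPM at 1 h and at 0.102, 18.6 and 11.9 TPM at 8 h. Its high and low libraries followed neither time nor series. The 8 snoRNA genes within Snhg1, each in an intron of at least 1 spliced transcript, had rows although Snhg1 itself had none. They summed to 157 and 126 TPM at 1 h and to 125, 140 and 133 TPM in the 8 h replicates 13, 14 and 15. The most abundant of them, Snord22, was at 35.2 and 32.0 TPM at 1 h and at 28.6, 34.2 and 32.7 TPM at 8 h, and none of the 8 was called between times or series. Poly-A libraries with size selection capture free snoRNAs poorly, and reads from unspliced host RNA over these introns cannot be told apart from them.

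Epb41l4aos, a short lncRNA gene on chromosome 18 with 1 snoRNA gene in an intron, was at 27.5 and 30.7 TPM at 1 h and at 25.2, 23.2 and 33.9 TPM in the 8 h replicates 13, 14 and 15. The 8 h libraries spanned the 1 h values. The difference between times was −0.10 ± 0.18 (adjusted limma p of 0.797) and between series 0.32 ± 0.20 (adjusted p of 0.355). Its nearest gene, Epb4.1l4a, lies 341 bases away on the opposite strand and was at 53.4 and 64.7 TPM at 1 h and at 75.5, 54.1 and 82.3 TPM at 8 h. Epb4.1l4a was highest in both series 2 libraries, with a series difference of 0.53 ± 0.15 (adjusted p of 0.0845).

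Meg3, the maternally expressed lncRNA of the Dlk1-Dio3 domain (ENSMUSG00000021268, chr12:109541001-109571726, plus strand, lincRNA), was low. It was at 2.97 and 2.66 TPM at 1 h and at 1.44, 3.60 and 1.45 TPM in the 8 h replicates 13, 14 and 15. Replicate 14 was the highest library and both libraries of series 2 were the lowest, so times overlapped and series did not. The difference between times was −0.34 ± 0.32 (adjusted limma p of 0.618). Between series it was −0.91 ± 0.20 with an adjusted p of 0.0486, short of the fold threshold, and series 2 averaged 40.2% of replicate 14. The separation of the series rested on TPM. On mean coverage scaled to depth and set on the TPM scale, Meg3 was at 0.320 and 0.186 at 1 h and at 0.185, 0.359 and 0.185 at 8 h, so that 1 h replicate 2 was level with series 2. Meg3 has 11 annotated transcripts, and the part of transcript assignment in this difference was not tested.

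The Dlk1-Dio3 domain holds maternally expressed lncRNAs, among them Meg3, Rian and Mirg, and paternally expressed protein genes, among them Dlk1, a Notch-related ligand. Of 7 genes of the domain listed, 4 were tested. None was called between times, with a median log2 difference of −0.41 beside 0.10 over all genes. Between series 2 of 4 were called lower, with a median of −1.15 beside 0.11 over all genes, of which 0.692% were called lower and 3.33% higher. Rian, the next lncRNA 32214 bases beyond Meg3, was at 6.42 and 4.87 TPM at 1 h and at 2.25, 8.05 and 2.64 TPM in the 8 h replicates 13, 14 and 15, a series difference of −1.40 ± 0.21 (adjusted limma p of 0.0199). Dlk1, 77665 bases before Meg3, was at 2.81 and 2.66 TPM at 1 h and at 0.906, 5.15 and 0.517 TPM at 8 h, a series difference of −1.85 ± 0.24 (adjusted p of 0.0126). In all 3 genes replicate 14 was the highest and series 2 the lowest. Begain, at the edge of the domain, did not follow them, with 1.00 and 1.86 TPM at 1 h and 1.81, 1.16 and 1.08 TPM at 8 h. Rtl1 and Dio3 were listed at 0 in all libraries and Mirg did not exceed 0.0724 TPM.

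**Figure D2:**
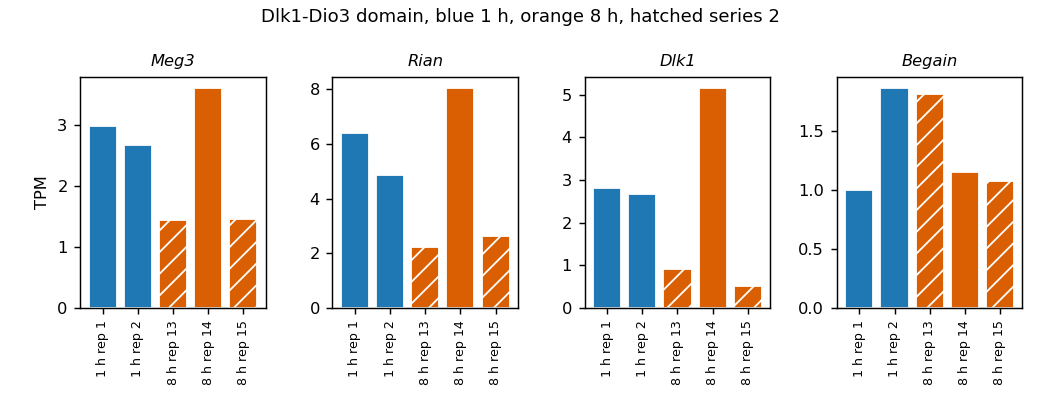
TPM of the 4 tested genes of the Dlk1-Dio3 domain in each library, with blue bars for 1 h, orange bars for 8 h, hatching for series 2 and an axis of its own for each gene. Meg3, Rian and Dlk1 peak in 8 h replicate 14 (3.60, 8.05 and 5.15 TPM) and are lowest in the hatched libraries, and Begain is not.

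Miat, an lncRNA best known from heart and nervous tissue (ENSMUSG00000097767, chr5:112213228-112229395, minus strand, lincRNA), was at 5.56 and 3.44 TPM at 1 h and at 2.40, 4.34 and 2.48 TPM in the 8 h replicates 13, 14 and 15. Series 2 was again the lowest. The difference between times was −0.44 ± 0.29 (adjusted limma p of 0.499) and between series −0.63 ± 0.27 (adjusted p of 0.207). On depth-scaled coverage, an alternative added after the data were seen, the difference between times shrank to −0.06 (adjusted p of 0.895). Its neighbours moved the other way between series without being called, Tpst2 by 0.51 ± 0.14 (adjusted p of 0.0900) and Mn1 by 0.53 ± 0.25 (adjusted p of 0.260).

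Neat1, the paraspeckle scaffold (ENSMUSG00000092274, chr19:5824708-5845478, minus strand, lincRNA), lies 22036 bases from Malat1 on the same strand but was far lower in these poly-A libraries. It was at 1.73 and 0.935 TPM at 1 h and at 1.13, 1.08 and 2.91 TPM in the 8 h replicates 13, 14 and 15. One library, replicate 15, was high. The difference between times was 0.17 ± 0.35 (adjusted limma p of 0.821) and between series 0.47 ± 0.42 (adjusted p of 0.533). The high value of replicate 15 was not seen in coverage. Depth-scaled coverage of Neat1 was 1.73 and 0.935 at 1 h and 1.13, 1.08 and 1.20 at 8 h, and TPM was 2.43 times coverage in replicate 15 and equal to it in the 4 others. The row of Gm27505, a 110 base RNA annotated in an exon of Neat1, was also highest in replicate 15, at 0.330 and 3.90 TPM at 1 h and 0.300, 0.278 and 8.01 TPM at 8 h. On coverage, the Neat1 difference between times was −0.11 (adjusted p of 0.783). Malat1 and Neat1, though neighbours, thus did not share the low values of series 2, and the difference between them was not tested.

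**Figure D3:**
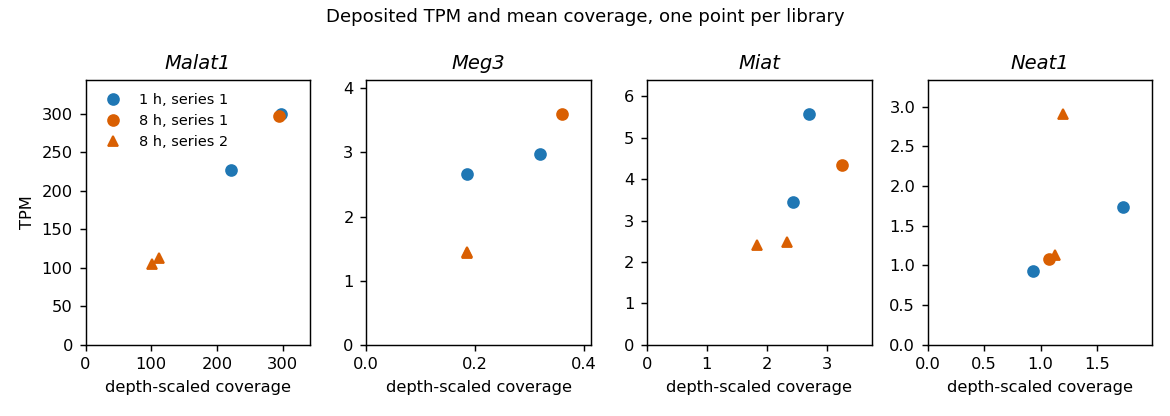
Deposited TPM against mean coverage scaled to library depth, for Malat1, Meg3, Miat and Neat1, with 1 point per library, colour for time and triangles for series 2. Both triangles of Malat1 lie low on both axes, while the high triangle of Neat1 (8 h replicate 15, 2.91 TPM) lies at a coverage of 1.20, near the other libraries.

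Snhg11 and Rmst were below 1 TPM on average and were not tested. Snhg11, classed as protein coding in GENCODE vM21 (ENSMUSG00000044349, chr2:158375638-158386145, plus strand), was at 0.527 and 0.517 TPM at 1 h and at 0.685, 0.242 and 0.811 TPM at 8 h. It was highest in series 2 and lowest in replicate 14. Rmst (ENSMUSG00000097348, chr10:92071037-92165170, minus strand) was at 0.265 and 1.02 TPM at 1 h and was listed at 0, then at 0.247 and 0.286 TPM, in the 8 h replicates 13, 14 and 15. Its span holds 2 miRNA genes, both listed at 0.

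Set beside each other, the 7 tested genes showed no call between times and 1 call between series (Malat1, lower). Over all 13870 genes, 0.0433% were called between times, and 0.692% were called lower and 3.33% higher between series. With 8 h and 1 h compared, 6 of 7 differences were below 0 and the median was −0.34, beside 0.10 over all 13870 genes and 0.003 over the 610 lncRNA genes. With the series compared, both libraries of series 2 lay below the 3 others for Malat1, Mir22hg, Miat and Meg3, that is 4 of 7 (57.1%), and for 13.5% of all genes and 18.7% of lncRNA genes. None of the 7 lay above in both, where 39.8% of all genes and 22.1% of lncRNA genes did. The TPM of the 9 genes summed to 669 and 575 at 1 h and to 414, 662 and 465 in the 8 h replicates 13, 14 and 15, and Malat1 made most of that difference. Malat1, Mir22hg, Miat and Meg3 do not sit together in the genome, and all but Mir22hg are lincRNAs.

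**Figure D4:**
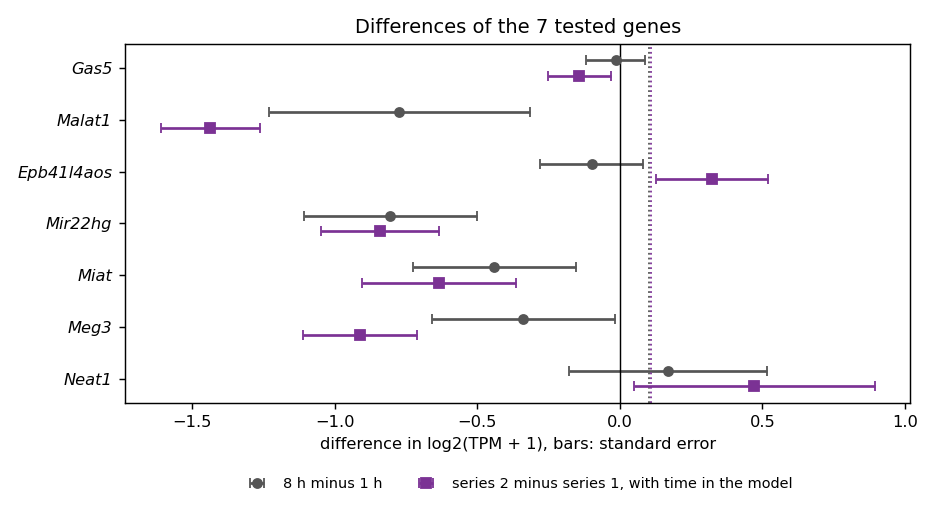
Differences in log2(TPM + 1) with standard errors for the 7 tested genes, between times (grey circles) and between series with time in the model (purple squares), with dotted lines at the median of all genes (0.10 and 0.11). Malat1 lies furthest left between series at −1.44, and Gas5 lies near 0 in both.

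Markers of other cell types moved with the same split. Between series, 3 of 4 astrocyte markers were called higher (Gfap by 3.68 ± 0.33, Aqp4 by 2.20 ± 0.24 and Slc1a2 by 1.08 ± 0.18 on the log2 scale in limma), and all 4 were above in both series 2 libraries. Summed, they were at 510 and 623 TPM at 1 h and at 822, 486 and 814 TPM in the 8 h replicates 13, 14 and 15. Of 6 neuronal markers tested, 2 were called lower (Map2 by −1.13 ± 0.11 and Syt1 by −1.31 ± 0.26). Both series 2 libraries were the lowest for 3 of the 6, beside 13.5% of all genes. Other markers went the other way without a call, Snap25 by 0.38 ± 0.16, Dcx by 0.47 ± 0.22 and Rbfox3 by 0.02 ± 0.25. The neuronal list summed to 216 and 243 TPM in series 2 and to between 279 and 468 TPM in series 1. Map2 made most of these sums, with 405 TPM in replicate 14. Of 6 oligodendrocyte lineage markers, Mbp was called lower (−1.48 ± 0.22). Their list summed to 2121 and 2441 TPM in series 2 and to between 1600 and 2236 TPM in series 1. The part of cell composition, sex and mitochondrial RNA in the lower Malat1, Mir22hg, Miat and Meg3 was not tested. In bulk samples, fewer cells of a type and less RNA per cell cannot be told apart.

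Partners of these RNAs were described by lists of their own. Among 14 tested snoRNA host genes, Gas5 and Epb41l4aos included, none was called between times or series, with medians of 0.02 and 0.03. Their extremes between times were Snhg4 at 0.46 and Snhg8 at −0.43, and Snhg6, the highest after Gas5, was at 168 and 176 TPM at 1 h and at 117.7, 164 and 136 TPM at 8 h. Of 12 factors of nonsense-mediated decay, the pathway that degrades Gas5 RNA, none was called in either comparison, with medians of 0.01 and 0.04. Smg5 and Upf3a had the highest levels, Dhx34 had the highest difference between times at 0.26 and Smg1 the lowest at −0.17. Of 10 paraspeckle proteins, none was called, with medians of 0.09 between times and 0.22 between series. Nono, a core paraspeckle protein that binds Neat1, was at 460 and 415 TPM at 1 h and at 496, 447 and 536 TPM at 8 h, and Hnrnpk and Nudt21 marked the ends of the differences between times, at −0.10 and 0.22.

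Of 14 proteins of nuclear speckles, where Malat1 resides, none was called between times or series, with medians of 0.10 and 0.17. Srsf3, a splicing factor of the SR family, was at 349 and 305 TPM at 1 h and at 450, 315 and 455 TPM at 8 h, a series difference of 0.52 ± 0.11 (adjusted limma p of 0.0478) below the fold threshold. Srsf2 was at 282 and 307 TPM at 1 h and at 356, 264 and 419 TPM at 8 h. Srsf5 had the lowest difference between times, with 374 and 326 TPM at 1 h and 179, 218 and 166 TPM at 8 h, at −0.90 (adjusted p of 0.240). Both series 2 libraries were the lowest for Srsf5 and for Son, a speckle scaffold named after its values were seen. That is 2 of 14 (14.3%), near the 13.5% of all genes tested. The series 2 libraries were the highest for 7 of 14 (50%), beside 39.8% of all genes tested. Son was at 255 and 218 TPM at 1 h and at 164, 227 and 169 TPM at 8 h, a series difference of −0.44 ± 0.13 (adjusted p of 0.0870). Srsf7 had the highest difference between times, at 0.48 (adjusted p of 0.309).

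Among 19 other lncRNAs tested, none was called between times and 1 was called higher between series. This was 2900097C17Rik, with a series difference of 3.60 ± 0.16 (adjusted limma p of 0.0011). It was at 82.0 and 79.6 TPM at 1 h and at 76.8, 6.22 and 97.6 TPM in the 8 h replicates 13, 14 and 15, so replicate 14 alone was low and sets this call. Six3os1 and Pantr1 had the highest mean levels of this list, and Ftx, a lncRNA near Xist, had the highest difference between times at 0.80 ± 0.20 (adjusted p of 0.300). The medians of the list were 0.08 and 0.18.

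The nearest expressed genes reported here gave no common direction. Frmd8, beyond Neat1, was higher in series 2 by 0.47 ± 0.11 (adjusted limma p of 0.0495), below the fold threshold. Prpf8 beside Mir22hg was lower in both series 2 libraries, at −0.24 ± 0.11 (adjusted p of 0.221), and Wdr81 was at 0.65 ± 0.36 (adjusted p of 0.309). Rc3h1, before Gas5, was at −0.20 ± 0.15 between series. Slc3a2, 106 bases from the annotated start of Snhg1, was at 94.1 and 138 TPM at 1 h and at 115, 128 and 144 TPM at 8 h.

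Of the set, Meg3 alone had a row in the deposited count table, which lists 7599 genes. It had 58 and 39 reads in the columns named 1 h replicates 1 and 2, and 90, 30 and 48 reads in the columns named 8 h replicates 13, 14 and 15, out of column totals of 13988166 to 18572154. As CPM (counts scaled to the column total) these were 4.15 and 2.36 at 1 h and 4.99, 2.07 and 2.58 at 8 h. The log2 difference was −0.03 ± 0.51, with an adjusted p of 0.995 in edgeR's quasi-likelihood test. That test called 0 of 7590 genes (0%), with 199 at an unadjusted p under 0.05, and DESeq2 also called 0, with 227 under 0.05.

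The names of the 8 h count columns did not go with the tables of the same names. Relative to 1 h replicate 1, the column named 8 h replicate 13 lay within 0.1 on the log2 scale of the table of replicate 14 for 78.2% of 6860 genes, and of its own table for 25.3%. The column named replicate 15 matched the table of replicate 13 at 76.9% of genes, and the column named replicate 14 matched no table above 38.2%. The high Meg3 count in the column named replicate 13 thus stands beside the high TPM in the table of replicate 14. Both columns are 8 h libraries by name, and all TPM values above follow the tables. The series are read from the identifiers that name these columns. By content, a column of series 2 thus went with the table placed in series 1. Which series each 8 h table belongs to was not settled. The split of the tables by Xist and Y-linked genes does not rest on these names.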

How the data were processed

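Paired-end reads came from 5 stranded libraries made after poly-A selection, 2 taken 1 h and 3 taken 8 h after PBS. The authors aligned reads to GRCm38 through the nf-core/rnaseq workflow with STAR and featureCounts, and the submitters' processing notes name bcl2fastq 2.19.1.403. The deposited count table holds raw read counts per gene, filtered by a rule that is not stated. For each library the authors deposited a table of TPM, FPKM and mean coverage per gene, made with a tool not given in the sources used here. Deposited FPKM and coverage served only for the depth-scaled coverage, in which coverage was divided by the library's median coverage per FPKM (5.57 to 7.18 in genes with 1 transcript) and set on the TPM scale. Depth is known only as these ratios and the count column totals.

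TPM was summed per Ensembl identifier. Genes whose mean TPM reached 1 were tested with limma 3.58.1 (intensity trend, R 4.3.3) on log2(TPM + 1), which understates the change of low genes, with Benjamini-Hochberg adjustment over 13870 genes. A second model added the identifier series to time. Counts were tested with edgeR 4.0.16 (quasi-likelihood, TMM), with DESeq2 1.42.0 as an alternative. The tests were tested on simulated data. Other alternatives were a pseudocount of 0.1, no filter, median-ratio scaling, leaving out mitochondrial genes, the largest row per gene, the series as a term, series 1 alone, no fold threshold, an adjusted p of 0.01 and leaving out each library. Coverage in place of TPM, and leaving out libraries in the series comparison, were added after seeing the data. Groups came from the labels. The groups share no replicate number. Columns of values with no sample numbered 0, and rows with no gene 0.

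Symbols and coordinates are those of the tables, identical to GENCODE vM21 for 83.2% of 45143 shared genes. Gene types and transcripts are those of vM21, in which Rmst has another identifier. Sequences are from RefSeq (GRCm38.p6), with promoter windows for 7 of the 10 genes. The members and gene lists were chosen with earlier results of these data known. Named genes were all members, in each list the genes called or else the 2 with the highest mean TPM and those with the highest and lowest difference, and the nearest gene on each side whose mean TPM reached 1. Some genes that this rule names are not reported here. Mir22, Mir5117, Snord22 and Gm27505 were named after their values were seen. Libraries exposed to hydrogen peroxide were not analysed here.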

Additional observations from a re-analysis of the deposited data

How the results depend on the processing

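Of 161 recomputed differences of the tested genes, 139 kept their direction and their side of the threshold. 8 h replicate 14 decided most of what changed. Genes called between times numbered 6, 573 without replicate 14 and between 0 and 573 over the libraries left out, 0 with no filter on low values, 2 at an adjusted p of 0.01 and 19 with the series as a term. Members called between times numbered 0 to 2 over the libraries left out, with the 2 (Malat1 and Mir22hg) when replicate 14 was left out. Between series 558 genes were called, and 82 to 642 over the libraries left out, with the call of Malat1 lost in 2 of 4 such fits (0 to 1 members). With replicate 14 left out, time and series coincided, so the series comparison could not be fitted. Differences between times in that fit cannot be told apart from those between series.

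Differences between times changed sign in 15 cases of TPM. With the series as a term, and in series 1 alone, where 8 h is replicate 14 only, Malat1 was at 0.18, Meg3 at 0.27, Gas5 at 0.082 and Neat1 at −0.15. On depth-scaled coverage Neat1 was at −0.11 and Gas5 at 0.0071. Over the libraries left out, Neat1 ranged from −0.13 to 0.42 (−0.08 without 1 h replicate 2), Gas5 from −0.061 to 0.047 (0.034 without 1 h replicate 1), Epb41l4aos from −0.26 to 0.0087, and the Meg3 count difference from −0.50 to 0.42 (0.22 and 0.13 without replicates 14 and 15). None of these differences was called. Median-ratio scaling moved the median of all genes from 0.10 to −0.004 between times and from 0.11 to −0.005 between series, and it changed no call or direction of a tested gene. No paired analysis was possible because the groups share no replicate number. With 2 and 3 libraries per time, 1 library decides most differences, and the level of Meg3 rests on 30 to 90 reads.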
